A study of Homo sapiens with 16 samples.

Results

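A list of 38 genes of ribosome production and MYC-driven growth was followed across human breast tumours in which the phosphatase SHP2 had been depleted with either of a pair of hairpins. The genes were taken by symbol from a list chosen with earlier results of these data known. Counts of members beside the share of all genes therefore describe the list and do not test it. Each gene was read from the transcript cluster annotated to its symbol alone, using the cluster with the highest mean where a gene had several. By this rule 34 of the 38 genes were measured, among 18377 genes in all. NOP56 and PPAN lie in clusters that carry several symbols, and GNL3 and DDX18 were not found with a symbol of their own, so these 4 genes were not analysed here. The tumours came from BT474, a HER2-amplified line of human breast cancer cells, which were grown in mammary fat pads of mice without a full immune system. All cells carried a doxycycline-inducible lentiviral vector, and all mice, controls included, were given doxycycline in the drinking water (2 g per L) over 30 days once tumours had formed. The vector expressed SHP2 miR1 in 7 tumours, SHP2 miR2 in 3 tumours and CTRL miR, a control hairpin, in 6 tumours. Each tumour's total RNA was measured on 1 human gene array, and values are log2 signals. The labels do not tie tumours to separate animals or to separately transduced cultures, so the p-values measure the spread between these tumours. The question addressed was whether tumours depleted of SHP2 differ from control tumours in these genes, and whether the hairpins differ from each other.

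Ribosomes are made in the nucleolus. RNA polymerase I transcribes a long precursor ribosomal RNA, small nucleolar ribonucleoproteins (snoRNPs) modify it, and many assembly factors fold and cut it into the small and the large ribosomal subunit. MYC is a transcription factor that, paired with MAX, binds the hexamer CACGTG (the canonical E-box) and drives this programme together with genes of polyamine and nucleotide synthesis, iron uptake and mitochondrial chaperones. SHP2, the product of PTPN11, removes phosphate from tyrosines, and growth factor receptors need it for full activation of RAS and ERK.

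The promoter windows of these genes were searched for the hexamer. The 5 shown belong to the members with the smallest adjusted p for SHP2 miR1 among those that hold it. Each run is a RefSeq window of 300 bases on GRCh38.p14, from 250 bases before to 50 after the transcription start, written 5′ to 3′ on the gene's own strand, with CACGTG in capitals. DCTPP1 lies at chr16:30429751-30430050 on the minus strand, FBL at chr19:39846330-39846629 on the minus strand and SRM at chr1:11059969-11060268 on the minus strand. PES1 lies at chr22:30591861-30592160 on the minus strand and BYSL at chr6:41921249-41921548 on the plus strand.
DCTPP1: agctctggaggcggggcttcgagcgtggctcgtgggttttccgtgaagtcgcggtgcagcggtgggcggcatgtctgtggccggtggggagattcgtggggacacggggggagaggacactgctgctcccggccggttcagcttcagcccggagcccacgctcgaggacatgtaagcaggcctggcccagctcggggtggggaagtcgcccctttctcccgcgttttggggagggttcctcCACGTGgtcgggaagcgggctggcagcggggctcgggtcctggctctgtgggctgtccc
FBL: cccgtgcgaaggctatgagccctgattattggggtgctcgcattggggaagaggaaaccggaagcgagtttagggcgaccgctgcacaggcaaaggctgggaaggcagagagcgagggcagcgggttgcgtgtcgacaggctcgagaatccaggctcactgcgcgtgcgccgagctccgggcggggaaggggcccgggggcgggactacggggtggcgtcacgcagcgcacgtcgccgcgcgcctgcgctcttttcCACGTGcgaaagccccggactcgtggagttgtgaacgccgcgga
SRM: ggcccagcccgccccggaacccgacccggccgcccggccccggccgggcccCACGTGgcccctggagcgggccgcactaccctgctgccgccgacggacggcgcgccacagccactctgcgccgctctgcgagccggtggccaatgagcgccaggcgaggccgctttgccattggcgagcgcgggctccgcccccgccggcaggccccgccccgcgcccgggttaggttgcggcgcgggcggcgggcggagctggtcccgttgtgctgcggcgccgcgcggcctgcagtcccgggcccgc
PES1: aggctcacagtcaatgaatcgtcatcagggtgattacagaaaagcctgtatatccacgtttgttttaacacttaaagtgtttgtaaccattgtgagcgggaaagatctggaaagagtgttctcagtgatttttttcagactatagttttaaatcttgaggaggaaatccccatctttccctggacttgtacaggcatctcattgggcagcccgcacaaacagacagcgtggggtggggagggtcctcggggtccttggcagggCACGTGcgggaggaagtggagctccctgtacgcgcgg
BYSL: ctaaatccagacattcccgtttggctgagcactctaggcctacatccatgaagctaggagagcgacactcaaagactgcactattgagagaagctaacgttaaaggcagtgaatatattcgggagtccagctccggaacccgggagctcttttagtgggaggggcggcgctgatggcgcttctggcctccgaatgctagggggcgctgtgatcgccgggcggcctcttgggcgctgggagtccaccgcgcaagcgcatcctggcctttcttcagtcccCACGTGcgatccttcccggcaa
The hexamer reads the same on both strands. Counted with the RefSeq start that each window was built on as position 1, its first base lies at position -9 in DCTPP1, -199 in SRM, 7 in FBL, 14 in PES1 and 29 in BYSL. Other starts of these genes were not examined. The DCTPP1 window holds an ATG with an open reading frame before its start, so the hexamer there may lie within the gene. Of the 34 measured members 29 had a window in the table, and 14 of these (48.3%) held CACGTG. The share was 29.3% among the 116 other genes of the pathway lists with a window, 8.9% among the 14210 genes on the arrays with a window and 7.4% of all 27305 windows. HSPD1 and HSPE1, which face each other across a shared promoter, share 1 and the same copy. A match describes these letters in this window and is no evidence of binding.

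Several features of the arrays were not given by the groups. PTPN11 itself was 6.59 to 7.18 in SHP2 miR1 tumours and 6.34 to 6.53 in SHP2 miR2 tumours, against 8.23 to 8.61 in CTRL miR tumours, so the labels of the knockdown held in every tumour. CTRL miR tumours 1, 3, 4 and 6 stood apart from all other tumours by genes typical of HEK293, a human embryonic kidney cell line: IRS4 was 2.97 to 3.91 in the 10 knockdown tumours, against 7.14 to 8.29 in those 4 controls and 3.16 and 3.77 in CTRL miR 2 and 5. Of the 9 measured markers of that line, 6 (IRS4, LIN28B, HOXD10, NEFM, NEFL and GAL) were higher in each of these 4 controls than in any other tumour. The other 3 went the opposite way between the controls: PAX2 (4.68 to 4.90, against 4.96 and 5.23), LHX1 (5.26 to 5.38, against 5.54 and 5.59) and SOX11 (6.79 to 7.02, against 7.45 and 7.22) were lower in these 4 than in CTRL miR 2 and 5. The arrays also fell into a set A (CTRL miR 1 to 3, SHP2 miR1 tumours 1 to 4) and a set B (all others, with every SHP2 miR2 tumour), read from the expression profiles. The SD over all clusters was 1.89 in SHP2 miR2 tumours 1 and 3 and 1.98 in SHP2 miR2 tumour 2, 1.99 to 2.07 in SHP2 miR1 tumours and 1.95 to 2.05 in CTRL miR tumours. Results are therefore also given against each subset of controls, within set B and with SHP2 miR2 tumour 2 alone.

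With SHP2 miR2, nearly the whole programme was lower. Of the 34 measured members 33 fell and 0 rose against CTRL miR, where 18.2% of all genes fell and 11.8% rose, and HSPE1 alone did not pass (limma, adjusted p = 0.101, difference -0.30). The median difference of the 34 members was -0.77, against 0.02 over all genes, and their range was -1.32 to -0.30. With SHP2 miR1, 0 members rose and 0 fell against CTRL miR, where 1.38% of all genes rose and 3.38% fell. At an unadjusted p below 0.05, 3 of 34 members differed with SHP2 miR1, where 18.4% of all genes did. The median difference with SHP2 miR1 was -0.09, 26 members had a negative and 8 a positive difference, and the range was -0.44 to 0.15. Averaged over the 34 members, the signal was 7.96 to 8.24 in SHP2 miR1 tumours and 7.31 to 7.56 in SHP2 miR2 tumours, against 7.88 to 8.32 in CTRL miR tumours. The SHP2 miR2 tumours thus lay below every other tumour in this mean, while the SHP2 miR1 tumours lay within the range of the controls. In bulk tissue, fewer tumour cells and less RNA per cell cannot be told apart.

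**Figure D1:**
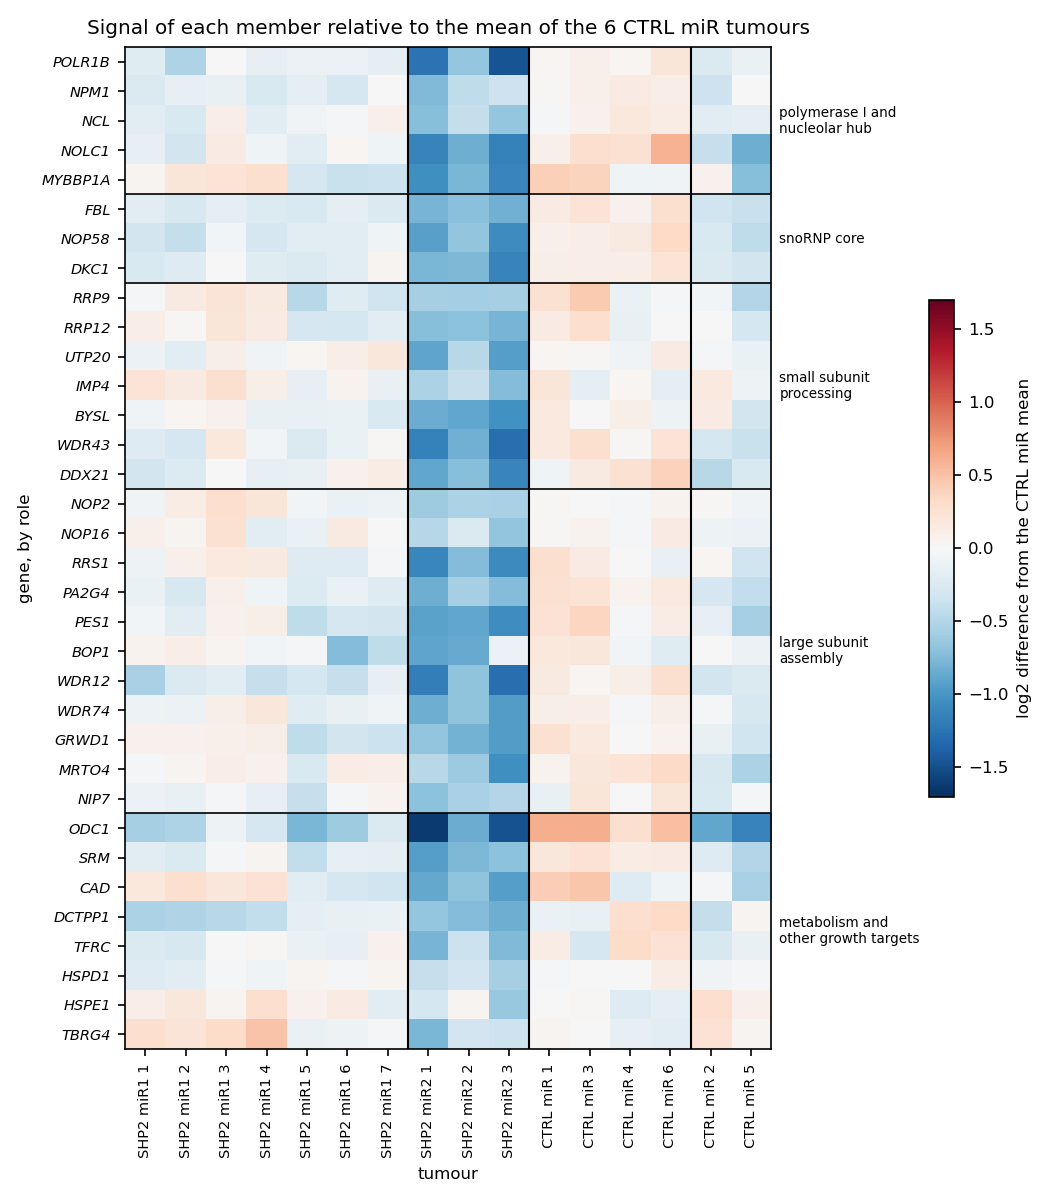
Log2 difference of each of the 34 members (rows, by role) from the mean of the 6 CTRL miR tumours in every tumour (columns; colour scale in log2 units). The 3 SHP2 miR2 columns are blue in nearly every row, and CTRL miR 2 and 5 on the right are lower than CTRL miR 1, 3, 4 and 6 in 18 rows without overlap.

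All 5 members of the polymerase I and nucleolar hub group fell with SHP2 miR2, with a median difference of -0.98, and 0 of 5 changed with SHP2 miR1. POLR1B, a core subunit of RNA polymerase I, was 7.03, 7.41 and 7.54 (lowest, median, highest) in SHP2 miR1 tumours, 6.29, 6.90 and 6.08 in SHP2 miR2 tumours 1 to 3, 7.58, 7.64, 7.58 and 7.75 in CTRL miR 1, 3, 4 and 6, and 7.30 and 7.44 in CTRL miR 2 and 5. Every SHP2 miR2 tumour was below every other tumour, with tumour 2 the nearest to the controls. The difference from CTRL miR was -1.12 ± 0.15 with SHP2 miR2 (SE, adjusted p = 4.66e-05, 45.9% of the control level on the linear scale) and -0.18 ± 0.12 with SHP2 miR1 (adjusted p = 0.478). NOLC1, a nucleolar phosphoprotein that carries snoRNPs, was 8.15, 8.38 and 8.60 (lowest, median, highest) in SHP2 miR1 tumours, 7.32, 7.64 and 7.31 in SHP2 miR2 tumours, 8.55, 8.74, 8.72 and 9.05 in CTRL miR 1, 3, 4 and 6, and 8.07 and 7.64 in CTRL miR 2 and 5. SHP2 miR2 tumour 2 here reached the level of CTRL miR 5, and every SHP2 miR1 tumour was above both CTRL miR 2 and 5. NOLC1 fell by 1.04 with SHP2 miR2 (adjusted p = 0.00175), and its difference with SHP2 miR1 was -0.09 (adjusted p = 0.858, 95% interval -0.44 to 0.26).

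NPM1 (nucleophosmin), an abundant nucleolar chaperone, was 7.76, 7.87 and 8.04 (lowest, median, highest) in SHP2 miR1 tumours, 7.30, 7.61 and 7.70 in SHP2 miR2 tumours, 8.07, 8.13, 8.18 and 8.15 in CTRL miR 1, 3, 4 and 6, and 7.70 and 8.04 in CTRL miR 2 and 5. The highest SHP2 miR2 tumour and the lowest control nearly met. NPM1 had the smallest fall of the group with SHP2 miR2, -0.51 ± 0.12 (adjusted p = 0.0038). MYBBP1A, a nucleolar factor of precursor rRNA processing, was 7.13, 7.55 and 7.79 (lowest, median, highest) in SHP2 miR1 tumours, 6.47, 6.73 and 6.38 in SHP2 miR2 tumours, 7.92, 7.88, 7.44 and 7.45 in CTRL miR 1, 3, 4 and 6, and 7.58 and 6.78 in CTRL miR 2 and 5. All SHP2 miR2 tumours were below all others, though tumour 2 came within a small step of CTRL miR 5. Its difference was -0.98 ± 0.21 with SHP2 miR2 (adjusted p = 0.00219) and -0.04 ± 0.16 with SHP2 miR1 (adjusted p = 0.948). NCL (nucleolin) fell by 0.60 with SHP2 miR2 (adjusted p = 0.00119).

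All 3 measured members of the snoRNP core fell with SHP2 miR2, with a median of -0.89, and 0 of 3 changed with SHP2 miR1. FBL (fibrillarin), the methyltransferase of the box C/D snoRNPs, was 8.49, 8.53 and 8.60 (lowest, median, highest) in SHP2 miR1 tumours, 7.97, 8.04 and 7.93 in SHP2 miR2 tumours, 8.89, 8.99, 8.82 and 9.03 in CTRL miR 1, 3, 4 and 6, and 8.42 and 8.38 in CTRL miR 2 and 5. The tumours formed separate steps: SHP2 miR2 lowest, CTRL miR 2 and 5 next, SHP2 miR1 next, and the other 4 controls on top. Its difference was -0.77 ± 0.13 with SHP2 miR2 (adjusted p = 0.000371, 58.5% of the control level) and -0.22 ± 0.10 with SHP2 miR1 (adjusted p = 0.263).

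NOP58, the scaffold partner of FBL in the same particles, was 9.33, 9.53 and 9.69 (lowest, median, highest) in SHP2 miR1 tumours, 8.80, 9.06 and 8.66 in SHP2 miR2 tumours, 9.82, 9.85, 9.88 and 10.06 in CTRL miR 1, 3, 4 and 6, and 9.47 and 9.31 in CTRL miR 2 and 5. DKC1 (dyskerin), the pseudouridine synthase of the box H/ACA snoRNPs, was 8.35, 8.40 and 8.65 in SHP2 miR1 tumours, 7.83, 7.85 and 7.48 in SHP2 miR2 tumours, 8.71, 8.72, 8.72 and 8.84 in CTRL miR 1, 3, 4 and 6, and 8.36 and 8.30 in CTRL miR 2 and 5. For both genes all SHP2 miR2 tumours were below all others, and the SHP2 miR1 tumours overlapped CTRL miR 2 and 5 but lay below the other controls. The differences with SHP2 miR2 were -0.89 ± 0.14 for NOP58 (adjusted p = 0.000279) and -0.89 ± 0.13 for DKC1 (adjusted p = 0.000104).

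All 7 small subunit factors fell with SHP2 miR2, with a median of -0.77, and 0 of 7 changed with SHP2 miR1. BYSL (bystin), which acts late in the maturation of the small subunit precursor, had the smallest adjusted p of the members with SHP2 miR2. It was 6.80, 6.94 and 7.14 (lowest, median, highest) in SHP2 miR1 tumours, 6.23, 6.18 and 6.04 in SHP2 miR2 tumours, 7.23, 7.05, 7.16 and 6.98 in CTRL miR 1, 3, 4 and 6, and 7.21 and 6.75 in CTRL miR 2 and 5. All SHP2 miR2 tumours were well below every other tumour, and both subsets of controls overlapped with SHP2 miR1. The difference was -0.91 ± 0.11 with SHP2 miR2 (adjusted p = 1.75e-05, 53.1% of the control level) and -0.08 ± 0.09 with SHP2 miR1 (adjusted p = 0.702, 95% interval -0.27 to 0.10).

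WDR43, a protein of the small subunit processome, was 8.31, 8.50 and 8.78 (lowest, median, highest) in SHP2 miR1 tumours, 7.45, 7.78 and 7.33 in SHP2 miR2 tumours, 8.77, 8.87, 8.63 and 8.83 in CTRL miR 1, 3, 4 and 6, and 8.31 and 8.23 in CTRL miR 2 and 5. UTP20, a large scaffold of the same particle, was 7.57, 7.78 and 7.93 in SHP2 miR1 tumours, 6.85, 7.28 and 6.80 in SHP2 miR2 tumours, 7.78, 7.77, 7.68 and 7.89 in CTRL miR 1, 3, 4 and 6, and 7.73 and 7.64 in CTRL miR 2 and 5. Neither gene had an SHP2 miR2 tumour within the range of any other group, and for UTP20 the controls formed a single narrow band. WDR43 fell by 1.08 with SHP2 miR2 (SE 0.15, adjusted p = 6.88e-05) and UTP20 by 0.77 (SE 0.11, adjusted p = 0.000124), with differences of -0.10 and 0.01 with SHP2 miR1. Of the other small subunit factors, the RNA helicase DDX21 fell by 0.91, RRP12 by 0.74, RRP9 by 0.57 and IMP4 by 0.56 with SHP2 miR2, at adjusted p-values of 0.000541 to 0.0219.

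All 11 measured large subunit factors fell with SHP2 miR2, with a median of -0.71, and 0 of 11 changed with SHP2 miR1. PES1, BOP1 and WDR12 form a complex that processes large subunit rRNA. WDR12 was 7.58, 7.83 and 7.99 (lowest, median, highest) in SHP2 miR1 tumours, 6.95, 7.44 and 6.84 in SHP2 miR2 tumours, 8.28, 8.17, 8.23 and 8.40 in CTRL miR 1, 3, 4 and 6, and 7.81 and 7.88 in CTRL miR 2 and 5. The SHP2 miR2 tumours were below all others, and the SHP2 miR1 tumours lay around CTRL miR 2 and 5 and below the other 4 controls. Its difference was -1.05 ± 0.14 with SHP2 miR2 (adjusted p = 6.42e-05, 48.3% of the control level) and -0.31 ± 0.11 with SHP2 miR1 (adjusted p = 0.128).

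PES1 was 6.66, 6.91 and 7.20 (lowest, median, highest) in SHP2 miR1 tumours, 6.18, 6.22 and 6.05 in SHP2 miR2 tumours, 7.34, 7.46, 7.06 and 7.23 in CTRL miR 1, 3, 4 and 6, and 6.96 and 6.54 in CTRL miR 2 and 5. RRS1, which in yeast helps to build 5S RNA into the large subunit precursor, was 7.64, 7.85 and 8.03 in SHP2 miR1 tumours, 6.75, 7.13 and 6.78 in SHP2 miR2 tumours, 8.14, 8.0, 7.88 and 7.74 in CTRL miR 1, 3, 4 and 6, and 7.90 and 7.53 in CTRL miR 2 and 5. For PES1 and RRS1 the SHP2 miR2 tumours again lay apart below, and the SHP2 miR1 tumours overlapped the controls. PES1 differed by -0.95 ± 0.16 (adjusted p = 0.000472) and RRS1 by -0.98 ± 0.13 (adjusted p = 6.2e-05) with SHP2 miR2.

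BOP1 was the large subunit factor whose SHP2 miR2 tumours agreed least, at 6.55, 6.60 and 7.36, against 7.24 to 7.64 in CTRL miR tumours. SHP2 miR2 tumour 3 lay within the control range. Its difference was -0.62 (adjusted p = 0.0194), and a further BOP1 cluster, of lower mean, gave -0.68 (adjusted p = 0.00764). The other large subunit members with SHP2 miR2 ranged from NOP16, at -0.47, to WDR74, at -0.83, and between them lay NOP2 (-0.57), NIP7 (-0.58), PA2G4 (-0.71), MRTO4 (-0.71) and GRWD1 (-0.81), at adjusted p-values of 5.47e-05 to 0.00541. NOP2 methylates cytosine in large subunit rRNA, GRWD1 escorts a ribosomal protein into the nucleolus, and PA2G4 binds the receptor ERBB3 as well as ribosomes.

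Among the metabolic and other growth genes, 7 of 8 fell with SHP2 miR2, with a median of -0.69 over the 8, and 0 of 8 changed with SHP2 miR1. ODC1, ornithine decarboxylase, the rate-limiting enzyme of polyamine synthesis, was 8.06, 8.32 and 8.76 (lowest, median, highest) in SHP2 miR1 tumours, 7.22, 8.0 and 7.37 in SHP2 miR2 tumours, 9.46, 9.46, 9.12 and 9.35 in CTRL miR 1, 3, 4 and 6, and 7.96 and 7.71 in CTRL miR 2 and 5. The 4 first-named controls were far above every other tumour, while CTRL miR 2 and 5 lay below every SHP2 miR1 tumour and only SHP2 miR2 tumour 2 of its group was above them. The difference from all 6 controls was -1.32 ± 0.32 with SHP2 miR2 (adjusted p = 0.00602) and -0.44 ± 0.25 with SHP2 miR1 (adjusted p = 0.389).

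CAD, which carries out the opening steps of pyrimidine synthesis, was 7.18, 7.70 and 7.80 (lowest, median, highest) in SHP2 miR1 tumours, 6.64, 6.83 and 6.58 in SHP2 miR2 tumours, 7.93, 7.99, 7.30 and 7.44 in CTRL miR 1, 3, 4 and 6, and 7.48 and 6.97 in CTRL miR 2 and 5. DCTPP1, a pyrophosphatase that clears excess dCTP, was 9.04, 9.15 and 9.45 in SHP2 miR1 tumours, 8.91, 8.83 and 8.75 in SHP2 miR2 tumours, 9.45, 9.44, 9.85 and 9.90 in CTRL miR 1, 3, 4 and 6, and 9.16 and 9.62 in CTRL miR 2 and 5. For both genes all SHP2 miR2 tumours were below all others. The array sets also separated both genes: CAD was higher and DCTPP1 lower in every set A than in every set B tumour, within SHP2 miR1 and within CTRL miR. CAD differed by -0.83 ± 0.19 (adjusted p = 0.00402) and DCTPP1 by -0.74 ± 0.15 (adjusted p = 0.00146) with SHP2 miR2. DCTPP1 had the smallest adjusted p of all members with SHP2 miR1, 0.105, at a difference of -0.34.

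SRM, spermidine synthase, fell by 0.80 and the transferrin receptor TFRC by 0.64 with SHP2 miR2, at adjusted p-values of 0.000731 and 0.00338. TBRG4, a mitochondrial RNA factor, fell by 0.49 (adjusted p = 0.0159). HSPD1 and HSPE1 are the partner subunits of the mitochondrial chaperonin and share the promoter described above. HSPD1 fell by 0.43 with SHP2 miR2 (adjusted p = 0.00275), the smallest fall of the members that passed. HSPE1 was 6.37, 6.71 and 6.03 in SHP2 miR2 tumours, against 6.45 to 6.96 in CTRL miR tumours, so that its groups overlapped.

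**Figure D2:**
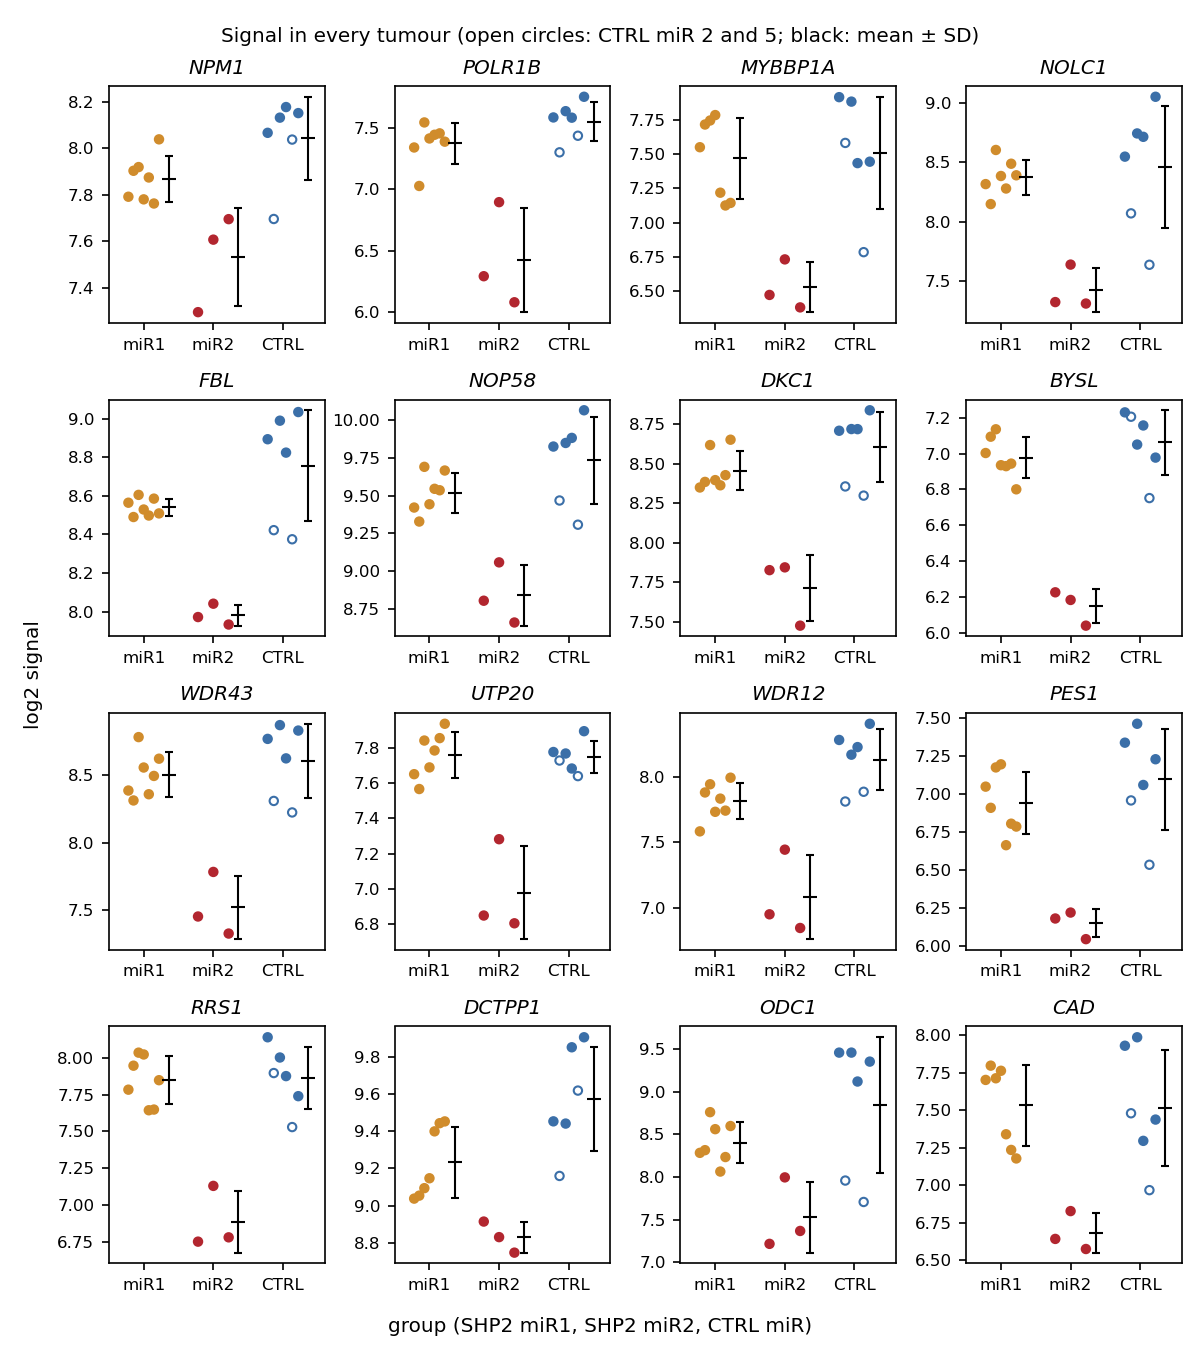
Log2 signal (vertical axes) of 16 named members in every tumour of SHP2 miR1, SHP2 miR2 and CTRL miR, with group mean and SD in black and CTRL miR 2 and 5 as open circles. SHP2 miR2 points lie below the other groups in most panels, and in ODC1 and NOLC1 the open circles lie among or below the SHP2 miR1 points.

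Without overlap between groups, 29 of 34 members had all 3 SHP2 miR2 tumours below all 6 CTRL miR tumours, where 11.2% of all genes did. The 5 that overlapped were NOLC1, BOP1, MRTO4, ODC1 and HSPE1. The falls differed in size between genes, from 40.2% of the control level for ODC1 to 74.3% for HSPD1 among those that passed. Among members with a promoter window, the median difference with SHP2 miR2 was -0.75 in the 14 that hold CACGTG and -0.81 in the 15 that do not. The difference between these medians was not tested.

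**Figure D3:**
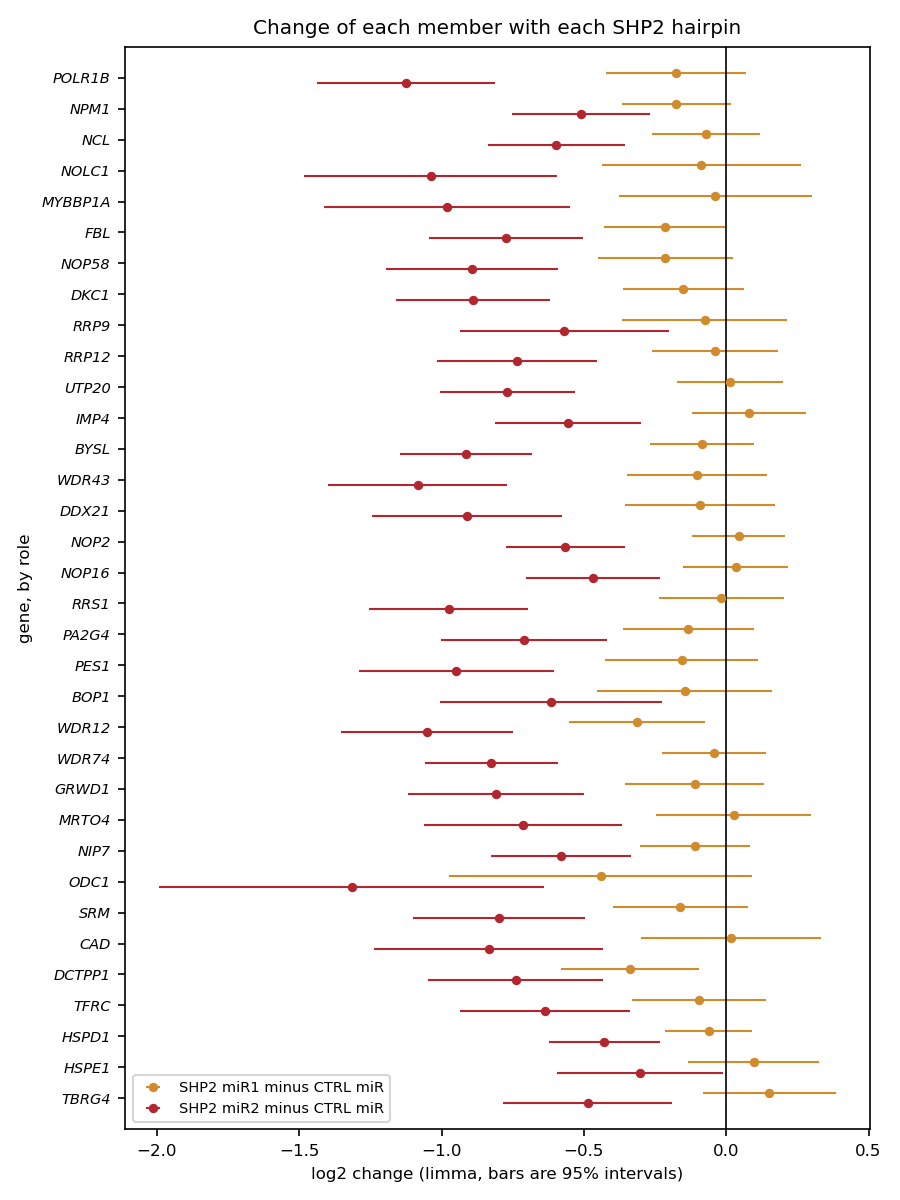
Log2 difference from CTRL miR (horizontal axis, limma estimate with 95% interval) of each of the 34 members (rows, by role) with SHP2 miR1 and with SHP2 miR2. The SHP2 miR1 estimates lie between -0.44 and 0.15, and the SHP2 miR2 estimates lie between -1.32 and -0.30.

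The hairpins were then compared with each other directly, which tests whether their effects differ since both share the controls. Of the 34 members 31 were higher with SHP2 miR1 than with SHP2 miR2 and 0 were lower, where 14.3% of all genes were higher and 8.22% lower. The median difference, SHP2 miR1 minus SHP2 miR2, was 0.69 over the members and -0.0042 over all genes. The largest differences were those of WDR43 (0.98 ± 0.15, adjusted p = 0.000162), RRS1 (0.96 ± 0.13, adjusted p = 6.36e-05), POLR1B (0.95 ± 0.15, adjusted p = 0.000213) and NOLC1 (0.95 ± 0.21, adjusted p = 0.00385). The 3 that did not pass were DCTPP1 (0.40, adjusted p = 0.0505), ODC1 (0.88, adjusted p = 0.0517) and BOP1 (0.47, adjusted p = 0.0658). Every SHP2 miR1 tumour was above every SHP2 miR2 tumour for 32 of 34 members, where 13.2% of all genes showed this, and the exceptions were BOP1 and HSPE1. Within array set B alone, which holds 3 tumours of each group, 30 members fell with SHP2 miR2 against CTRL miR, where 9.98% of all genes fell, and 17 were higher with SHP2 miR1 than with SHP2 miR2, where 3.86% were.

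SHP2 miR2 tumour 2 was the highest of its group in 25 of 34 members. When it alone was kept of its group, with its spread taken from the other groups, the median difference from CTRL miR was -0.69, and 33 of 34 members had a negative difference. DKC1 (-0.76, adjusted p = 0.0446), BYSL (-0.88, adjusted p = 0.00859) and WDR74 (-0.69, adjusted p = 0.0387) were then the 3 members that fell, where 0.963% of all genes fell. Against this tumour 1 member, BYSL, was higher with SHP2 miR1, where 0.702% of all genes were. The compression of the values in SHP2 miR2 tumours 1 and 3 moved with these results, and its part in them was not tested.

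The values with SHP2 miR1 differed between the subsets of controls, which the labels do not tell apart. In 18 of 34 members CTRL miR 1, 3, 4 and 6 were all above CTRL miR 2 and 5, where 19% of all genes showed this, and in HSPE1 they were all below, where 16.6% did. Averaged over the members, CTRL miR 1, 3, 4 and 6 were at 8.22 to 8.32 and CTRL miR 2 and 5 at 8.02 and 7.88. Against CTRL miR 2 and 5 alone, 0 members changed with SHP2 miR1, where 0.0326% of all genes rose and 0.103% fell, and 3 members differed at an unadjusted p below 0.05, where 6.02% did. The median difference was 0.12, and 28 of 34 members had a positive one. Every SHP2 miR1 tumour was above both of these controls for 6 members, NOLC1, FBL, WDR43, PA2G4, MRTO4 and ODC1, where 4.24% of all genes showed this.

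Against CTRL miR 1, 3, 4 and 6 alone, 11 members fell with SHP2 miR1, where 11.9% of all genes fell, and the median difference was -0.20. ODC1 led with -0.95 ± 0.14 (adjusted p = 5.33e-05), followed by FBL (-0.39, adjusted p = 0.000954), WDR12 (-0.46, adjusted p = 0.00538), NOP58 (-0.39, adjusted p = 0.0074), DCTPP1 (-0.43, adjusted p = 0.0117) and SRM (-0.34, adjusted p = 0.0125). The other 5 were NOLC1 (-0.39), PA2G4 (-0.31), DKC1 (-0.29), PES1 (-0.33) and NPM1 (-0.26). ODC1 thus differed by -0.95 with SHP2 miR1 against these 4 controls and by 0.57 against CTRL miR 2 and 5.

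The fall with SHP2 miR2 had the same sign against either subset and a different size. Against CTRL miR 2 and 5 all 34 members had a negative difference, with a median of -0.55, and 11 fell, where 2.98% of all genes fell. These 11 were POLR1B (-0.94 ± 0.19, adjusted p = 0.00815), BYSL (-0.83 ± 0.15, adjusted p = 0.00297), RRS1 (-0.82 ± 0.17, adjusted p = 0.00725), WDR12 (-0.77), WDR43 (-0.75), UTP20 (-0.70), WDR74 (-0.67), DKC1 (-0.61), IMP4 (-0.60), NOP2 (-0.55) and NOP58 (-0.55). At an unadjusted p below 0.05, 31 of 34 differed, where 19.2% of all genes did, and the 3 SHP2 miR2 tumours were below both controls in 30 members, where 18% of all genes showed this. Against CTRL miR 1, 3, 4 and 6, 33 members fell, where 23.9% of all genes fell, with a median of -0.91. The control subset mattered most for ODC1, at -0.31 with SHP2 miR2 against CTRL miR 2 and 5 and -1.82 against the other 4 controls.

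**Figure D4:**
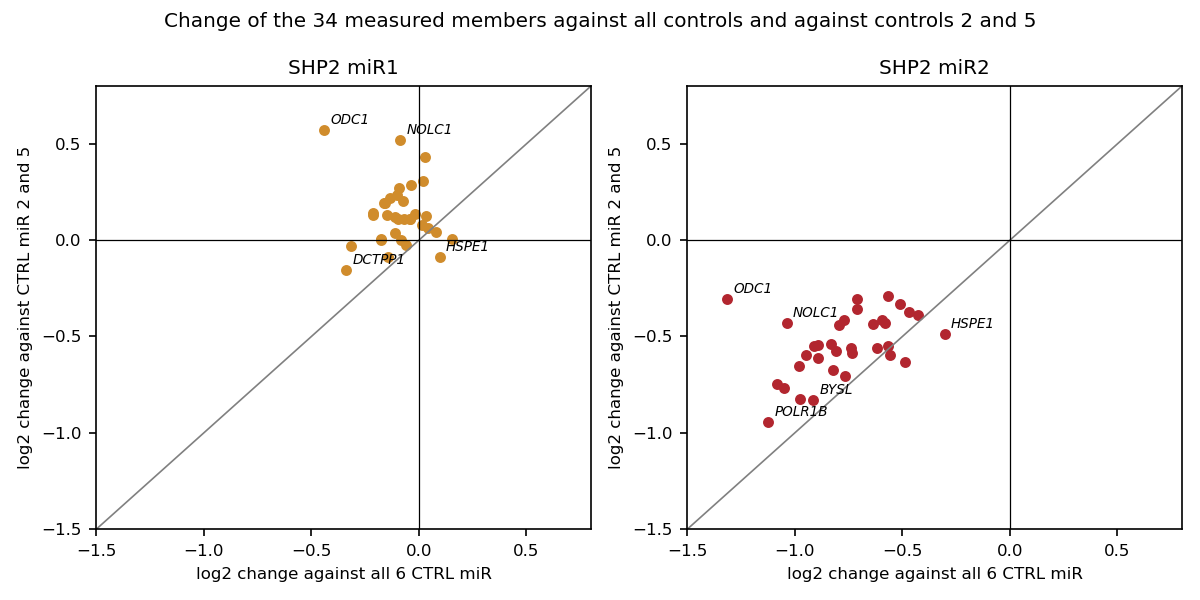
Log2 difference of each of the 34 members against all 6 CTRL miR tumours (horizontal axis) and against CTRL miR 2 and 5 alone (vertical axis), for SHP2 miR1 (left) and SHP2 miR2 (right), with the line of equal values in grey. For SHP2 miR1 28 points lie above 0 on the vertical axis, and for SHP2 miR2 all 34 lie below it.

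The array set moved with several members. Within SHP2 miR1, all set A tumours were above all set B tumours for 8 members, MYBBP1A, RRP9, RRP12, IMP4, PES1, GRWD1, CAD and TBRG4, where 15.7% of all genes showed this, and below them for DCTPP1 and HSPD1, where 13.4% did. Within CTRL miR, MYBBP1A, RRP12, RRS1, BOP1 and CAD were above in set A, where 11.8% of all genes were, and DCTPP1 was below, where 11.7% were. The SHP2 miR1 difference from CTRL miR was estimated within each set: 0 members changed in set A, with a median of -0.08, where 0.0381% of all genes fell, and 0 in set B, with a median of -0.11, where 0.00544% fell. At an unadjusted p below 0.05, 1 member differed in set A, where 14.4% of all genes did, and 1 in set B, where 9.26% did. The SHP2 miR1 difference did not pass a test of change between the sets for any member (lowest adjusted p = 0.99995).

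MYC itself was 6.96, 7.26 and 7.52 (lowest, median, highest) in SHP2 miR1 tumours, 4.73, 5.28 and 5.27 in SHP2 miR2 tumours, 7.68, 7.61, 7.61 and 7.75 in CTRL miR 1, 3, 4 and 6, and 7.14 and 6.99 in CTRL miR 2 and 5. All SHP2 miR2 tumours were far below every other tumour. The SHP2 miR1 tumours overlapped CTRL miR 2 and 5 but all lay below CTRL miR 1, 3, 4 and 6. MYC fell by 2.37 with SHP2 miR2 (SE 0.17, adjusted p = 1.88e-08) and differed by -0.23 ± 0.13 with SHP2 miR1 (adjusted p = 0.382). Against CTRL miR 2 and 5 these differences were -1.97 (adjusted p = 1.7e-06) and 0.17 (adjusted p = 0.906). Against CTRL miR 1, 3, 4 and 6 they were -2.57 (adjusted p = 3.93e-11) and -0.43 (adjusted p = 0.0104). MYC thus fell with SHP2 miR1 against these controls, where 11.9% of all genes fell. With SHP2 miR2 tumour 2 alone of its group the difference of MYC from CTRL miR was -2.19. Of its network, MNT, a MAX partner that represses E-box genes, rose by 0.46 (adjusted p = 0.00452) and MLX, a MAX-like protein, fell by 0.43 (adjusted p = 0.00301) with SHP2 miR2. MAX, MXD1, MXD3 and MXD4 did not pass, at differences of 0.06 to 0.11. With SHP2 miR2 against CTRL miR 2 and 5, neither MNT (0.36, limma adjusted p = 0.16) nor MLX (-0.32, adjusted p = 0.182) passed. Against CTRL miR 1, 3, 4 and 6, MNT (0.50, adjusted p = 0.00193) and MLX (-0.48, adjusted p = 0.000859) passed. With SHP2 miR2 tumour 2 alone of its group, their differences from CTRL miR were 0.28 and -0.32. For SHP2 miR1 minus SHP2 miR2, MLX passed (0.31, adjusted p = 0.0225) and MNT did not (-0.23, adjusted p = 0.107). Against all CTRL miR tumours, 0 of the 7 genes changed with SHP2 miR1.

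Other genes of the same pathways were counted from lists, 131 of 141 of them measured. These lists too were chosen with earlier results of these data known. With SHP2 miR2, 103 fell, where 18.2% of all genes did, and 1 rose, with a median of -0.56. With SHP2 miR1, 2 of the 131 (1.53%) fell, where 3.38% of all genes did, and 0 rose, with a median of -0.07. The falls with SHP2 miR2 comprised 10 of 15 polymerase I factors, 4 of 7 snoRNP factors, 37 of 47 small subunit factors, 35 of 43 large subunit factors and 17 of 19 growth targets. NVL, an ATPase of large subunit assembly, was the 1 gene that rose (0.44, adjusted p = 0.00372). It was also the 1 gene lower with SHP2 miR1 than with SHP2 miR2 (-0.56, adjusted p = 0.000753), a comparison in which 97 of the 131 genes were higher, against 14.3% of all genes.

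Of the polymerase I factors, POLR1E differed by -1.25 (adjusted p = 0.000214) and POLR1C by -0.59 (adjusted p = 0.000317) with SHP2 miR2. Of the snoRNP factors, the assembly ATPase RUVBL2 differed by -1.08 (adjusted p = 2.16e-05) and the dyskerin chaperone SHQ1 by -1.09 (adjusted p = 0.000499). NOB1, the nuclease of the last small subunit cleavage, differed by -0.93 (adjusted p = 0.000104) and RCL1 by -1.21 (adjusted p = 0.000204), both small subunit factors. NIFK (-0.70, adjusted p = 8.99e-05) and TEX10 (-1.12, adjusted p = 0.00013) led the large subunit factors. The mitochondrial protein C1QBP (-1.12, adjusted p = 0.000112) and PPAT, the enzyme that commits to purine synthesis (-0.96, adjusted p = 0.000156), led the growth targets.

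With SHP2 miR1 the 2 genes that fell were POLR1H, a small polymerase I subunit (-0.59, adjusted p = 0.0294), and SHQ1 (-0.57, adjusted p = 0.0314). The next in each list did not pass. They were TAF1A (-0.35, adjusted p = 0.0759), NHP2 (-0.25, adjusted p = 0.354), RCL1 (-0.48, adjusted p = 0.0662), LTV1 (-0.45, adjusted p = 0.176), GTPBP4 (-0.33, adjusted p = 0.134), DDX27 (0.21, adjusted p = 0.193), AMD1 (-0.34, adjusted p = 0.0613) and PRPS1 (-0.95, adjusted p = 0.0906).

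**Figure D5:**
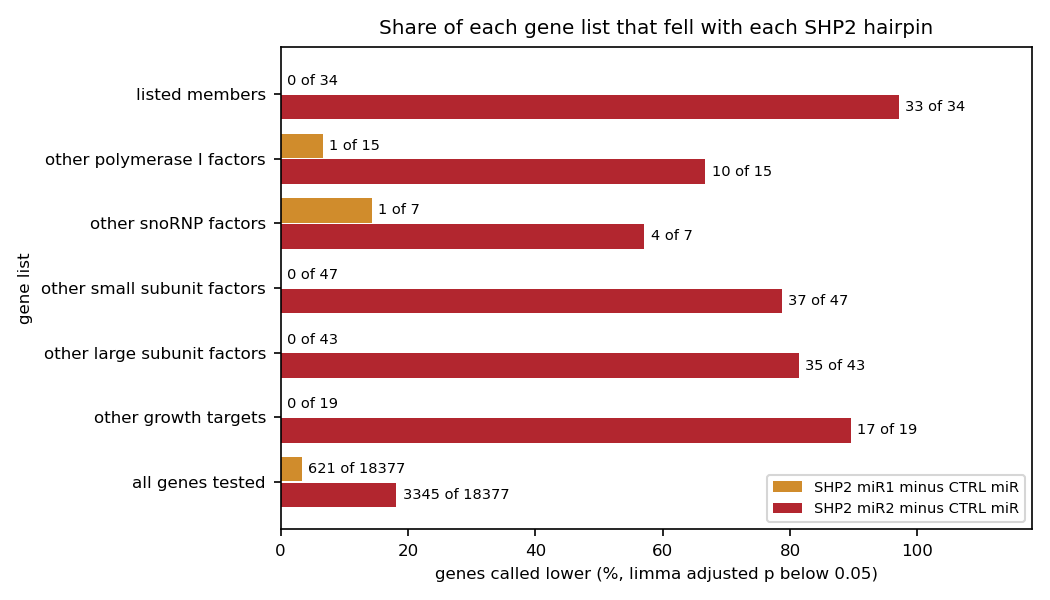
Percent of the measured genes of each list called lower (horizontal axis, limma adjusted p below 0.05) with SHP2 miR1 and with SHP2 miR2 against CTRL miR, with counts beside the bars. With SHP2 miR2 the bars of the listed members and all 5 other lists exceed that of all genes tested, 3345 of 18377.

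The tumours grew in mice while the arrays carry human probes, and some markers of each host cell type listed were higher in SHP2 miR2 tumours. With SHP2 miR2 against CTRL miR, 7 of 10 macrophage markers rose, where 11.8% of all genes rose, and the log2 of their summed signal was 7.87 to 8.17 in SHP2 miR1 tumours and 8.10 to 8.55 in SHP2 miR2 tumours, against 7.70 to 8.13 in CTRL miR tumours. In SHP2 miR2 tumour 2, PTPRC (3.57), CSF1R (5.04) and LYZ (5.57) lay above every CTRL miR tumour. CD68, CD14, CD163, AIF1, MRC1, ITGAM and TYROBP lay within the range of the controls in that tumour. CD14 was 5.65, 4.78 and 5.81 in SHP2 miR2 tumours 1 to 3, against 4.41 to 5.27 in CTRL miR tumours. Of the fibroblast markers 6 of 10 rose, with summed values of 9.80 to 10.10 in SHP2 miR1 tumours and 10.05 to 10.27 in SHP2 miR2 tumours, against 9.39 to 9.82 in CTRL miR tumours. Of the endothelial markers 3 of 10 rose, with summed values of 7.88 to 8.11 with SHP2 miR1 and 8.02 to 8.40 with SHP2 miR2, against 7.74 to 8.16 with CTRL miR. Of the muscle markers 2 of 9 rose, with summed values of 8.61 to 9.75 with SHP2 miR1 and 8.89 to 10.12 with SHP2 miR2, against 8.60 to 8.96 with CTRL miR. Of the adipocyte markers 5 of 10 rose and 1 fell, with summed values of 7.85 to 8.17 with SHP2 miR1 and 8.18 to 8.54 with SHP2 miR2, against 7.90 to 8.27 with CTRL miR. The summed ranges of SHP2 miR2 and CTRL miR tumours overlapped for the macrophage, endothelial, muscle and adipocyte lists and did not overlap for the fibroblast list. In CTRL miR tumours 4 macrophage, 2 fibroblast, 1 endothelial, 3 muscle and 1 adipocyte markers had every value below the array's lower quartile. That quartile was 4.01 and 4.04 in SHP2 miR2 tumours 1 and 3 and 3.87 in tumour 2, against 3.73 to 3.94 in CTRL miR tumours. The part of compressed low values in these rises was not tested. Of the luminal tumour cell markers 3 of 10 rose and 0 fell with SHP2 miR2. Their summed values were 13.70 to 13.90 in SHP2 miR1 tumours and 13.55 to 13.73 in SHP2 miR2 tumours. They were 13.22 to 13.64 in CTRL miR 1, 3, 4 and 6 and 13.72 to 13.84 in CTRL miR 2 and 5, so the control subsets did not overlap. The luminal markers of the BT474 line were thus present in every tumour. Every member had a signal above its array's median in every tumour.

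Of the 9 measured markers of HEK293 cells, 6 fell and 1 rose with SHP2 miR2, where 18.2% of all genes fell, and 5 fell with SHP2 miR1, where 3.38% did. Their summed values were 8.36 to 8.48 in SHP2 miR1 tumours and 8.35 to 8.50 in SHP2 miR2 tumours, against 9.41 to 9.95 in CTRL miR 1, 3, 4 and 6 and 8.47 and 8.53 in CTRL miR 2 and 5. With SHP2 miR1, 1 macrophage, 2 fibroblast and 1 luminal marker rose, where 1.38% of all genes rose, 0 endothelial and 0 muscle markers changed, and 1 adipocyte marker fell. The part of these markers in the differences of the members was not tested.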

How the data were processed

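Total RNA (100 ng, isolated with TRIZOL) of 16 BT474 tumours was measured on Affymetrix HuGene-1_0-st-v1 arrays, 1 array a tumour, per the labels' protocols. The authors deposited 1 value per transcript cluster and array, and these deposited values are on a log2 scale, as inferred from their range. The submitters' processing notes name R 2.10 and oligo 1.8. How background was corrected and arrays were normalized is not given in the sources used here. For arrays, their number limits the precision.

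Of 28869 clusters, 19310 carry 1 symbol, 1752 several and 7807 none in GEO's platform annotation. For each of the 685 genes with over 1 such cluster the one with the highest mean was used, leaving 18377 genes, with no filter on low values. A model with the 3 groups (SHP2 miR1, SHP2 miR2, CTRL miR) was fitted to all 16 arrays with limma 3.58.1 in R 4.3.3 (lmFit, eBayes, 13 residual degrees of freedom). P-values were adjusted after Benjamini-Hochberg over all genes of a comparison, with a threshold of 0.05, and intervals are at 95%. Each change is a log2 difference with its standard error (SE). Plots were drawn with matplotlib 3.10.9. The fit was tested on simulated data with known changes.

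Members and lists were chosen with earlier results of these data known. Within each role, the per-tumour values are given for the 2 members with the smallest and the 1 with the largest adjusted p for SHP2 miR1 against CTRL miR, and for the one with the largest difference between the hairpins. In the text, groups of over 5 tumours have the lowest, median and highest value, and the plot shows every tumour. Of each other list the 2 genes with the smallest adjusted p per hairpin are named. Promoter windows are those of RefSeq on GRCh38.p14. Deviations from the group means were correlated over all genes between same-numbered tumours. With r above 0.1 as the criterion, 5 of 6 pairs of SHP2 miR1 with CTRL miR met it (-0.30 to 0.37, median 0.29), 0 of 3 pairs of SHP2 miR2 with CTRL miR (-0.21 to 0.02) and 0 of 3 pairs of SHP2 miR1 with SHP2 miR2 (-0.42 to -0.15). The pairs that met it each lay within 1 array set, and all the others crossed the sets. Of 69 pairs of tumours with unlike numbers from different groups, 28 met it too. As not every same-numbered pair met it, the numbers were not taken to pair the tumours. Alternatives were quantile, median and cyclic loess scaling, a filter on low values, all clusters, a trended robust prior, array weights, the replicate number or the array set as a block, each set alone, only the groups compared, leaving out each tumour, CTRL miR 2 and 5 alone and, chosen after seeing the data, CTRL miR 1, 3, 4 and 6 alone, SHP2 miR2 tumour 2 alone and quantile scaling with CTRL miR 2 and 5.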

Additional observations from a re-analysis of the deposited data

Results flagged for a closer look

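Of 68 groups of values (34 members in SHP2 miR1 and in CTRL miR tumours), 5 held a tumour far from the others of its group, where chance gives about 1 in 20. NPM1 in CTRL miR 2 was at 7.70, with the next control at 8.04. HSPD1 in CTRL miR 6 was at 10.06, with the next control at 9.93. POLR1B in SHP2 miR1 tumour 2 was at 7.03, with the next tumour at 7.34. MRTO4 and NIP7 were lowest in SHP2 miR1 tumour 5, at 6.87 and 7.40, with the next tumours at 7.11 and 7.66. The 2 hairpins against the same gene differed in their effect on 31 of the 34 members, which were higher with SHP2 miR1 than with SHP2 miR2 by limma. The targeted gene PTPN11 was also higher with SHP2 miR1, by 0.46, and the part of this unequal depletion was not tested.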

How the results depend on the processing

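With SHP2 miR2 against CTRL miR, 33 members fell in the fit reported above (18.2% of all genes), 31 after quantile scaling (15.2%), 33 after median centring (22.6%), 30 after cyclic loess (14.6%) and 31 with the array set as a block (16.4%). The count was 11 with CTRL miR 2 and 5 as controls (2.98%), also 11 when quantile scaling was added (2.87%), and 3 with SHP2 miR2 tumour 2 alone of its group (0.963%). Leaving out single tumours gave 30 to 33. With SHP2 miR1 against SHP2 miR2, 31 members were higher (14.3% of all genes), 25 after quantile scaling (9.64%), 34 after median centring (21.9%), 23 after cyclic loess (7.17%), 17 in array set B alone (3.86%) and 1 with SHP2 miR2 tumour 2 alone (0.702%). Leaving out single tumours gave 25 to 32. With SHP2 miR1 against CTRL miR, 0 members fell (3.38% of all genes). The count was 6 with array weights (NPM1, FBL, NOP58, WDR12, ODC1 and DCTPP1), where 11.2% of all genes fell, 1 with the array set as a block (DCTPP1), where 3.99% fell, and 11 with CTRL miR 1, 3, 4 and 6 as controls, where 11.9% fell. Leaving out single tumours gave 0 to 2, and the 2 came without CTRL miR 2 (WDR12, -0.38, adjusted p = 0.0374, and DCTPP1, -0.42, adjusted p = 0.0168). The smaller sets of controls or tumours hold fewer samples. Otherwise the cause was not tested.

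With the replicate number as a block, 1 member (DCTPP1) fell with SHP2 miR1 (2.74% of all genes) and 33 with SHP2 miR2 (20.7%), and 32 were higher with SHP2 miR1 than with SHP2 miR2 (19.3%). Over all genes the block moved the count between the hairpins to 6773, against 4136 without it, and the numbers were not taken to pair the tumours. MYBBP1A (0.016) and UTP20 (-0.017) changed sign with SHP2 miR1 under this block.

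No named member changed sign with SHP2 miR2 or between the hairpins under any alternative run. With SHP2 miR1, where no member passed, signs turned under several alternatives, and for ODC1 and NOLC1 the turned values lay far from 0. With CTRL miR 2 and 5 as controls the signs that turned were those of NPM1 (0.00043), POLR1B (0.0048), MYBBP1A (0.29), NOLC1 (0.52), FBL (0.14), NOP58 (0.13), DKC1 (0.13), WDR43 (0.24), PES1 (0.19), RRS1 (0.13) and ODC1 (0.57). With quantile scaling as well they were those of MYBBP1A (0.24), NOLC1 (0.46), FBL (0.080), NOP58 (0.096), DKC1 (0.067), WDR43 (0.18), PES1 (0.16), RRS1 (0.079) and ODC1 (0.51). Elsewhere they were those of RRS1 after median centring (0.0073), UTP20 after cyclic loess (-0.019), in set A alone (-0.070) and with CTRL miR 1, 3, 4 and 6 (-0.020), and CAD after cyclic loess (-0.013), with array weights (-0.027), with the set as a block (-0.021), in set A alone (-0.055) and with CTRL miR 1, 3, 4 and 6 (-0.13). Without single tumours the ranges that crossed 0 were MYBBP1A -0.18 to 0.044, RRS1 -0.084 to 0.038, UTP20 -0.017 to 0.045, CAD -0.093 to 0.11 and NOLC1 -0.25 to 0.031.

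Median centring moved the median of all genes in the comparison of the hairpins to 0.11 and the median of the members to 0.80. It moved the share of lower genes among all called to 76.2% with SHP2 miR2, against 60.7% as deposited, and to 15.5% between the hairpins, against 36.5%. Over all genes, 874 were called with SHP2 miR1, 3371 with array weights, 3454 with CTRL miR 1, 3, 4 and 6, 25 with CTRL miR 2 and 5 (22 with quantile scaling), 10 in set A and 1 in set B. With SHP2 miR2 5508 were called, 8868 with array weights, 8435 with CTRL miR 1, 3, 4 and 6, 803 with CTRL miR 2 and 5 (837 with quantile scaling), 2550 in set B and 450 with SHP2 miR2 tumour 2 alone. Between the hairpins 4136 were called, 7180 with array weights, 2523 with the set as a block, 2302 after cyclic loess, 972 in set B and 304 with SHP2 miR2 tumour 2 alone. The 3 SHP2 miR2 arrays, all in set B, and the 2 subsets of controls limit what these counts can show.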
